A study of Mus musculus with 3 samples.

Results

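The 10 genes described here encode endocytic receptors, an adaptor, secreted proteins and a transcription factor of the visceral endoderm (VE), the epithelium that wraps the early mouse embryo. They are *Amn*, *Cubn*, *Lrp2*, *Dab2*, *Ttr*, *Rbp4*, *Trf*, *Afp*, *Spink3* and *Hnf4a*. Each was looked up by its symbol in the deposited table of gene signals, and 10 of 10 were found among 30854 symbols. *Spink3* is an older symbol of *Spink1*. Wild-type embryos at the early headfold (EHF) stage were cut at the border with the extraembryonic region, and total RNA of the embryonic part was hybridized to 3 Illumina bead arrays. The 3 arrays are replicates 1, 2 and 3 of a single untreated group. The sample labels name the strain as Cd-1, whereas the study's methods name ICR. Neither says whether an array holds a single embryo or a pool. Biological and technical spread between arrays cannot be told apart.

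VE cells take up maternal proteins and nutrients at their apical surface and secrete plasma proteins, much as liver and kidney tubule cells do later in life. Cubilin binds ligands but has no membrane anchor of its own, and amnionless carries it to the surface. Megalin, the product of *Lrp2*, is a very large receptor that works beside them. By the EHF stage, descendants of VE cells lie scattered among definitive endoderm cells over the embryonic region, while the extraembryonic VE stays an unbroken sheet. At headfold stages the study saw transcripts of an *Afp* reporter gene and of the VE marker *Apoc2* in the extraembryonic VE only. It proposes that the scattered descendants lower their VE markers.

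All 3 arrays carried signal well above background, with 29.2%, 26.6% and 23.3% of symbols at a detection p under 0.01 on replicates 1, 2 and 3. The detection p is the fraction of negative controls that were at least as bright. The arrays were deposited without normalization between them, and replicate 3 was the dimmest, with a median log2 signal of 6.42 beside 6.57 on replicate 1 and 6.51 on replicate 2. Of 15 embryonic region markers 11 were above background on every array, beside 20.6% of all symbols. The 11 include *T*, *Otx2* and *Pou5f1*. Of the rest, *Sox2* had a detection p under 0.01 on replicates 1 and 2, *Six3* on replicate 1, and *Mesp2* and *Hesx1* on none. In RNA from a whole tissue, fewer cells of a type and less RNA per cell cannot be told apart.

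A detection p under 0.01 on every array was required to call a gene above background, which 20.6% of all symbols met. Of the 10 genes, 8 met it. *Afp* met it on replicates 1 and 2, and *Lrp2* on no array. After normalization and a one-sided limma test of the level above background, adjusted over all symbols, 10 of 10 genes passed, beside 24.8% of all symbols. The rules can differ where a symbol has more than 1 probe, since its detection p merges them. Both counts are far above those shares, but the genes were chosen with earlier results of these data known.

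The receptor genes fell into a bright and a dim set, which cannot be ranked against each other because probes differ in how well they bind. *Amn*, which encodes amnionless, had log2 signals, as deposited, of 11.10 on replicate 1, 11.24 on replicate 2 and 10.39 on replicate 3, each the mean of 31 to 42 beads. Its level stood 6.01 above background on the log2 scale (SE 0.15, n = 3), and every array was far over its own background. *Cubn*, which encodes cubilin, had signals of 7.62, 7.81 and 6.99, each with a detection p of 0. Replicate 2 was the highest of these and replicate 3 the lowest. The *Cubn* level was 1.85 above background (SE 0.18, n = 3). The partners of the cubilin and amnionless receptor were thus both above background on every array.

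*Lrp2* had signals of 7.77, 7.60 and 6.98, averaged over at least 4 probes. Its detection p-values were 0.0380, 0.129 and 0.490, so the detection rule left it out on all 3 arrays. Its mean level was nevertheless 1.82 above background (SE 0.18, n = 3), with single arrays at 2.18, 2.07 and 1.22. The detection p of a symbol with several probes is a combined value, and the signals of the single probes are not analysed here. *Dab2*, the clathrin adaptor that links megalin to the endocytic machinery, also had at least 4 probes. Its signals were 10.20, 10.33 and 9.23, with detection p-values of 0.000975, 0.00383 and 0.00105. The *Dab2* level was 4.97 above background (SE 0.16, n = 3), with replicate 3 the lowest array. With a detection p under 0.001 in place of 0.01, *Dab2* was no longer called.

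**Figure D1:**
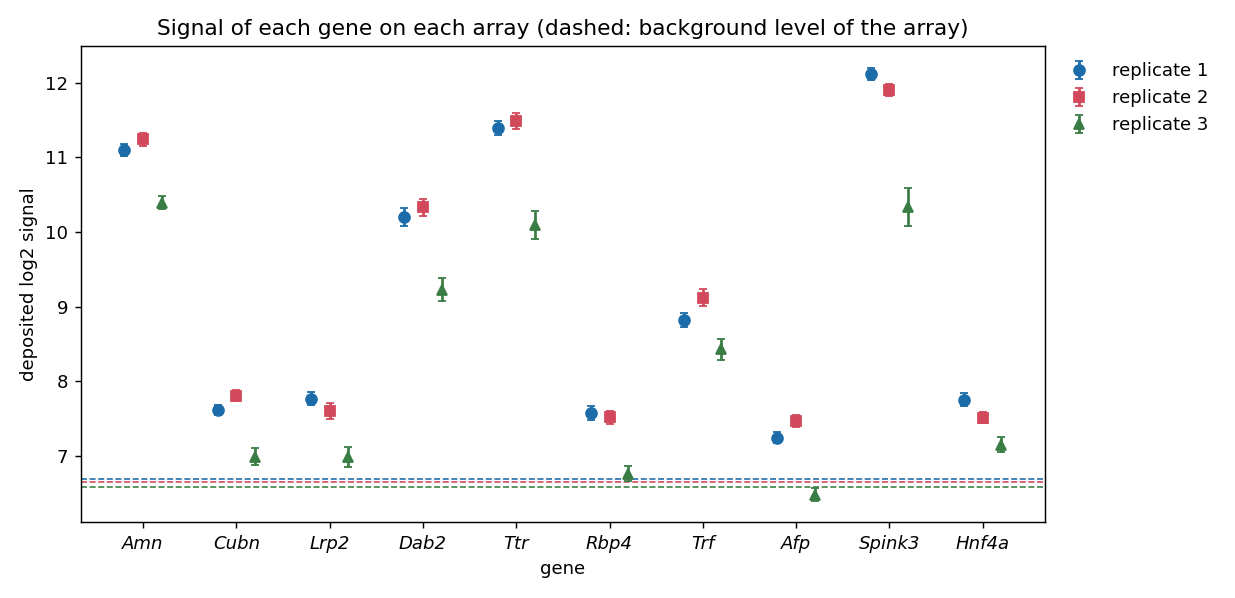
Deposited log2 signal (vertical axis) of each of the 10 genes (horizontal axis) on replicates 1, 2 and 3, with bars for the standard error over beads and dashed lines for the background level of each array. On replicate 3 every gene had its lowest signal, and *Afp* lay under the background line there. Heights should be compared between arrays of a gene, not between genes.

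Among the secreted proteins, *Ttr* and *Rbp4* encode partners in blood, transthyretin and the retinol-binding protein it keeps from being lost through the kidney. *Ttr* had signals of 11.40, 11.48 and 10.09, and its level was 6.097 above background (SE 0.15, n = 3). *Rbp4* had signals of 7.57, 7.52 and 6.76 and a level of 1.48 above background (SE 0.18, n = 3). For both genes replicates 1 and 2 lay close together and replicate 3 lay apart. *Trf*, which encodes the iron carrier transferrin, had signals of 8.82, 9.12 and 8.43 and a level of 3.69 above background (SE 0.16, n = 3). *Spink3*, a secreted inhibitor of trypsin, had signals of 12.12, 11.91 and 10.33. Its level was 6.58 above background (SE 0.15, n = 3), and its signal on the brightest array was 3.45 times that on the dimmest, the widest span of the 10 genes in the deposited signals.

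*Afp*, which encodes alpha-fetoprotein, the main serum protein of the fetus, was the member closest to background. Its signals were 7.25, 7.47 and 6.48, with detection p-values of 0, 0 and 0.0929. Relative to background its levels were 1.29, 1.84 and -0.48, so replicates 1 and 2 stood above it and replicate 3 below. The mean of 0.88 (SD 1.21, n = 3) passed the limma test with an adjusted p of 2.48e-05. That p rests on a standard error of 0.20 that the fit drew toward the other symbols, and the adjusted p rose to 0.469 without replicate 2 and to 0.0799 with the median of undetected symbols as the background level.

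*Hnf4a* encodes a nuclear receptor that is required in the VE and liver for the expression of many secreted proteins. Its signals were 7.75, 7.51 and 7.15, each with a detection p of 0, and its level was 1.88 above background (SE 0.18, n = 3). The fit gave standard errors of 0.15 to 0.20 to all 10 genes, while the SD of the same levels between arrays ran from 0.31 for *Hnf4a* and *Trf* to 1.21 for *Afp*. The p-values of the fit therefore treat the spread as nearly known. These SDs also carry the background level, which after normalization was 4.69, 4.82 and 5.08 on replicates 1, 2 and 3. The SD of the normalized levels alone was 0.11 for *Hnf4a*, 0.30 for *Trf* and 1.05 for *Afp*.

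**Figure D2:**
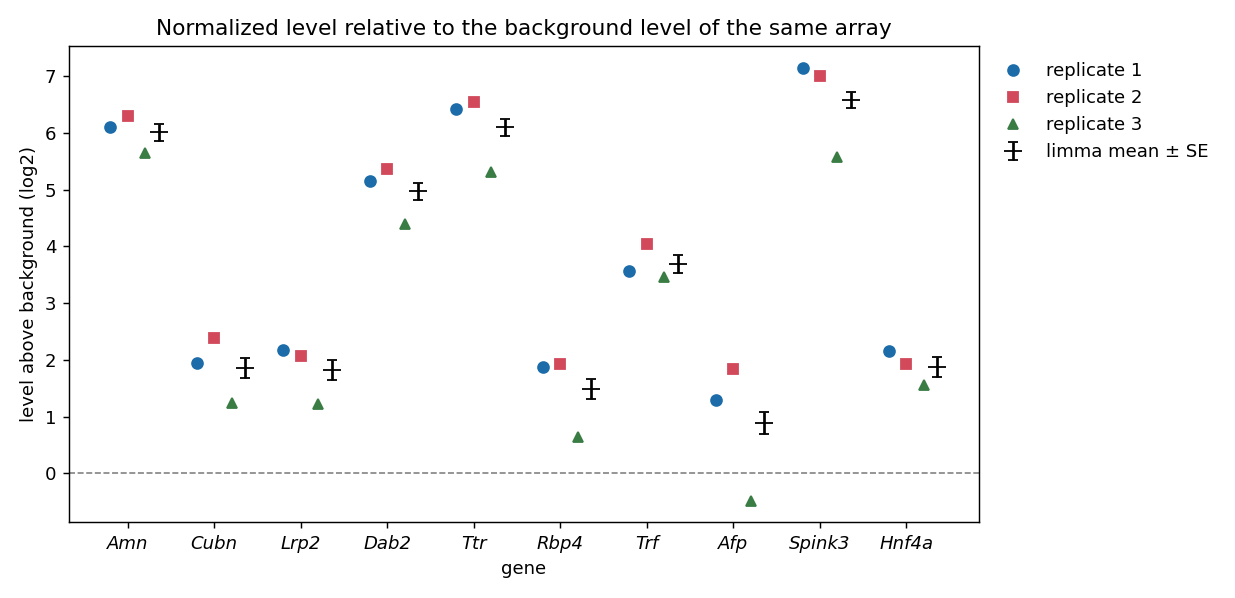
Level above the background level of the same array (log2, after normexp correction and quantile normalization) for each gene on replicates 1, 2 and 3, with the limma mean and its standard error in black. The dashed line is background. *Afp* on replicate 3, at -0.48, is the one value below it. The background level was 4.69, 4.82 and 5.08 on replicates 1, 2 and 3, so subtracting it lowers replicate 3 most.

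To show the sequence next to the transcripts, windows of 250 bases before to 50 bases after the annotated start were taken from RefSeq (GRCm38.p6), which gave 10 windows for 7 of the genes and none for *Ttr*, *Trf* and *Spink3*. Both strands were searched for the core of HNF4 sites, spelled CAAAGNNCA. The forkhead motif of FOXA proteins, spelled TGTTTNC, was searched in the same way. So was the motif of GATA factors, spelled AGATAA. The TATA box, spelled TATAAA, was searched only on the strand of the gene. The windows with matches of *Afp*, the *Cubn* and *Lrp2* receptor genes and a start of *Hnf4a* are shown, with matches in capitals. No match overlapped another.
*Afp*, chr5:90490464-90490763, plus strand: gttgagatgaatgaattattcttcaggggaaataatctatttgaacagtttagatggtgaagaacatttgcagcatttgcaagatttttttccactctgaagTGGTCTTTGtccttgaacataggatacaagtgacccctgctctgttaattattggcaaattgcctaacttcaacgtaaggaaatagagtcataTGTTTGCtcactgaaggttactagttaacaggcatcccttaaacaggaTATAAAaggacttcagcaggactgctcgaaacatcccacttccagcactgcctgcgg
*Cubn*, chr2:13491827-13492126, minus strand: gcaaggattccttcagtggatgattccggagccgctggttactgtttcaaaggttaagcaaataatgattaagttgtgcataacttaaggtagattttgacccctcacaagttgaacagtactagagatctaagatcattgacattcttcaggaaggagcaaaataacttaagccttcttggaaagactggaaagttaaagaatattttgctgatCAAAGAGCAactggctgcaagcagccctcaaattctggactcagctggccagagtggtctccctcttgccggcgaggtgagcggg
*Lrp2*, chr2:69585980-69586279, minus strand: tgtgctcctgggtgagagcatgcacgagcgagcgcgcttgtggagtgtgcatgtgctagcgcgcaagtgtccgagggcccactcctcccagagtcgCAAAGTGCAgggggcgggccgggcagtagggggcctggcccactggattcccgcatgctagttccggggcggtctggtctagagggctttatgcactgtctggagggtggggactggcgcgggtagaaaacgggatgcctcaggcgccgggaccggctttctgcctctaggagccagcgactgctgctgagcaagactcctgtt
*Hnf4a*, chr2:163506607-163506906, plus strand: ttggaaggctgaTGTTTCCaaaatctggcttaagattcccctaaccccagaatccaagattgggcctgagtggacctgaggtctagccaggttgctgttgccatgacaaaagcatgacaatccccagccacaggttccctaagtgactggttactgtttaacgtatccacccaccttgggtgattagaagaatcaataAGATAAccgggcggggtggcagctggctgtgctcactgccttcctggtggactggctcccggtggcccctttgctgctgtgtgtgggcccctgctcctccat

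The *Afp* window held an HNF4 core, a FOXA match and a TATA box. *Cubn* and *Lrp2* each held a single HNF4 core and no other match. The *Hnf4a* window shown held a FOXA match and a GATA match, and the window of its other start held none. Among the windows not shown, a start of *Dab2* held a GATA match. A start of *Rbp4* held a TATA box and its other start a FOXA match. *Amn* and the other *Dab2* start held no match. Over the 10 windows the HNF4 core was found in 3, where 6.36% of all 32851 windows hold it. FOXA was found in 3 (20.5% of all windows), GATA in 2 (11.2%) and the TATA box in 2 (8.32%). These are matches of letters in a short window and say nothing of binding.

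The arrays differed in these genes. On the deposited signals 10 of 10 genes were lowest on replicate 3, but so were 93.4% of the 6357 symbols above background, since that array was dimmer throughout. After background correction and quantile normalization, which remove that difference, 9 of 10 genes were still lowest on replicate 3. Among the 8 above background these were 7, beside 34% of all symbols above background. Replicate 2 was the highest for 8 of 10 genes, and for 6 of the 8, beside 29.4%. *Spink3* and *Hnf4a* were highest on replicate 1 (29.4% of symbols), and *Trf* was lowest there (32.9%). Deposited and median-centred signals gave 10 lowest on replicate 3 and 6 highest on replicate 2, the latter beside 14.5% of symbols on deposited signals. The order replicate 2, then 1, then 3 was found in 7 of the 10 genes, in 5 of the 8 above background and in 16.9% of all symbols above background. With a single sample per array these differences are a description, without a test.

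On replicate 2 the 10 genes differed from the mean of replicates 1 and 3 by a median of 0.55 in log2, beside -0.01 over the symbols above background. On replicate 3 their median was -0.59, beside 0.03. Replicate 2 was over 0.5 higher than the mean of the others for 6 of the 10 genes and 5 of the 8 above background, against 3.4% of all symbols above background. The low replicate 3 is part of that mean. Against replicate 1 alone, replicate 2 was over 0.5 higher for 3 genes, with a median of 0.29 over the 10. *Spink3* is among the 6 although replicate 2 was not above replicate 1, and *Ttr* and *Rbp4* exceeded replicate 1 by 0.24 and 0.19. Replicate 3 was over 0.5 lower for 7 of the 10 and 5 of the 8, against 7.08%. Replicate 1 was over 0.5 higher for *Spink3* alone, against 3.24%. The threshold of 0.5 lay close to several genes. On replicate 2 *Dab2* (0.53) was just past it and *Trf* (0.46) just short.

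Single genes differed widely in how far the arrays lay apart. *Afp* had normalized levels of 5.98, 6.66 and 4.59, a range of 2.07, and 1 of the 6357 symbols above background had a wider range. *Afp* is not itself one of those symbols, since its detection p on replicate 3 was 0.0929. Its standing depended on the scale, with a range of 0.99 in deposited signals beside 1.79 for *Spink3*. On the normalized scale *Spink3* followed, with 11.84, 11.83 and 10.66, a range of 1.19 that 45 symbols exceeded. Here replicates 1 and 2 were nearly equal and replicate 3 alone stood apart. *Rbp4*, at 6.56, 6.75 and 5.72, and *Ttr*, at 11.12, 11.36 and 10.40, showed the same form with ranges of 1.03 and 0.96. A range over 1 was found in 3 of the 10 genes, in 2 of the 8 above background and in 1.95% of all symbols above background.

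The other genes differed less or in another way. *Cubn* had normalized levels of 6.64, 7.20 and 6.31, so replicate 2 was above both others. *Dab2*, at 9.84, 10.18 and 9.47, had evenly spaced arrays. *Amn* was nearly equal on replicates 1 and 3, at 10.79 and 10.72, with 11.12 on replicate 2. *Lrp2* was nearly equal on replicates 1 and 2, at 6.87 and 6.88, with 6.30 on replicate 3. *Trf* was the exception to the low replicate 3, with 8.25 on replicate 1, 8.86 on replicate 2 and 8.54 on replicate 3. That holds for the normalized levels, whereas its deposited signal was lowest on replicate 3. *Hnf4a*, at 6.85, 6.74 and 6.63, had the smallest range, 0.22, which 4645 of the symbols above background exceeded. The transcription factor thus varied less between arrays than the secreted proteins in the list.

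The standard error over beads gives the error of a single array. For *Spink3* it was 0.08, 0.08 and 0.25 on the log2 scale, against a range of 1.79 in deposited signal between the arrays. For *Hnf4a* it was 0.08, 0.07 and 0.10, against a deposited range of 0.60. In each of the 10 genes the deposited range, 0.60 to 1.79, was larger than any standard error over beads, 0.06 to 0.25. This error covers the beads of an array and not the dissection, the RNA or the labelling.

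**Figure D3:**
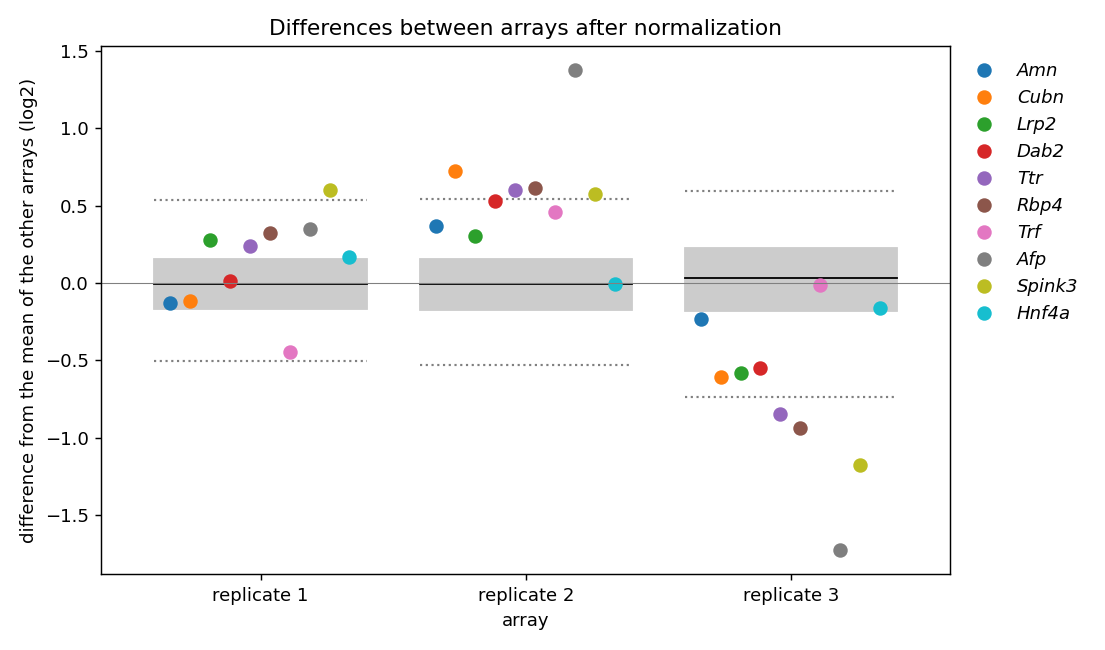
Difference of each array from the mean of the other 2 (log2, normalized) for the 10 genes, coloured by gene. Grey boxes run from the lower to the upper quartile of the 6357 symbols above background and black lines mark their medians, with dotted lines around the middle 95%. Most of the genes lie above the box on replicate 2 and below it on replicate 3, with *Afp* farthest out and *Hnf4a* at or within its edges.

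Other plasma protein genes, from a list of 26 that holds none of the 10, were above background at a share near that of all symbols (20.6%). They were 7 of the 26, namely *Apom*, *Ambp*, *Fga*, *Serpinf2*, *Fgg*, *Vtn* and *F10*. *Alb*, which encodes albumin, was not detected on any array, with detection p-values of 0.757, 0.315 and 0.876, nor were *Gc*, *Cp* or *Serpinc1*. *Apom*, a carrier of sphingolipid on lipoproteins, had signals of 11.04, 11.33 and 10.25. *Ambp*, the precursor of a protease inhibitor, had signals of 8.14, 8.16 and 7.27. *Fga*, the alpha chain of fibrinogen, had signals of 7.53, 7.88 and 6.87, with replicate 2 the highest and replicate 3 the lowest. The 7 genes had a median 0.58 above the mean of the others on replicate 2 and -0.40 on replicate 3, and 5 of them were over 0.5 higher on replicate 2. *F10* and *Vtn*, a clotting factor and vitronectin, had the opposite sign on both arrays. The differences of *F10* from the other arrays were -0.47 on replicate 2 and 0.78 on replicate 3.

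Beside 20.6% of all symbols, 6 of 16 genes that handle the cargo of these receptors were above background. Among them *Tfrc*, the receptor for transferrin, had signals of 10.45, 10.36 and 9.66, and *Fth1*, the heavy chain of ferritin, had 12.95, 12.81 and 12.39. After normalization *Fth1* was nearly level between the arrays, with a range of 0.04, and *Tfrc* had a range of 0.27. *Slc40a1*, the iron exporter ferroportin, and *Folr1*, a folate receptor, were 0.78 and 0.76 above the mean of the others on replicate 2 and -0.66 and -0.63 on replicate 3. The retinol-binding protein receptor gene *Stra6*, with 2 probes, failed the detection rule, with p-values of 0.489, 0.175 and 0.307, but passed the limma test at a level of 0.66 above background (SE 0.19, adjusted p = 0.00125). By the limma test 9 of the 16 passed, beside 24.8% of all symbols. *Gif*, which encodes intrinsic factor, a cubilin ligand of the gut, was not detected on any array.

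The general machinery of endocytosis was detected in part, with 16 of 30 genes above background, beside 20.6% of all symbols. *Lrpap1*, a chaperone of megalin and related receptors, had signals of 11.20, 11.24 and 10.51, with replicate 3 the dimmest. The clathrin light chain *Clta* and the adaptor subunit *Ap2s1* had levels of 4.35 and 5.04 above background. The 16 genes had medians of -0.02 on replicate 2 and 0.07 on replicate 3. Of the 16, 0 were over 0.5 higher on replicate 2, where 3.4% of all symbols above background were. *Eps15*, an endocytic adaptor, was the 1 gene of the 16 over 0.5 lower on replicate 3, at -0.64, where 7.08% were. *Myo6*, with 2 probes, failed the detection rule as *Lrp2* did and is not among the 16, although its level was 3.39 above background. It was 0.51 above the others on replicate 2 and -0.64 on replicate 3. The receptors' relatives *Lrp1*, *Vldlr* and *Lrp8* did not meet the detection rule on all 3 arrays. *Vldlr*, with 6 probes, nevertheless passed the limma test at 0.95 above background (SE 0.19, adjusted p = 1.13e-06), and *Lrp1* and *Lrp8* did not pass it.

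Of 14 further transcription factors of the VE on the array, 7 were above background, beside 20.6% of all symbols. The 7 include *Foxa1*, *Foxa3*, *Gata6*, *Hhex*, *Sox7* and *Sox17*. *Foxa3* had signals of 8.94, 9.14 and 8.06, and was 0.65 above the mean of the others on replicate 2 and -0.57 on replicate 3. *Gata6*, with signals of 8.93, 9.13 and 9.02, was 0.58 above the others on replicate 3, opposite to *Foxa3*.

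Genes listed as markers of other cell types were set beside these values, and their part in the differences was not tested. The shares of all symbols above background were 20.6% by detection p and 24.8% by the limma test. Of 15 markers of extraembryonic ectoderm and trophoblast, 5 were above background, with medians of 0.09 on replicate 2 and -0.11 on replicate 3. The log2 of the summed deposited signal over all 15, not normalized, was 11.92, 11.83 and 11.23 on replicates 1, 2 and 3. The 5 were *Rhox5*, *Cdx2*, *Ets2*, *Bmp4* and *Tcfap2c*, with levels of 4.37, 4.55, 3.54, 2.87 and 2.21 above background. *Rhox5* was the only one of the 5 past 0.5 on both arrays, 0.78 above the others on replicate 2 and -1.04 on replicate 3. Whether the 5 are particular to extraembryonic ectoderm and trophoblast at this stage was not examined. *Elf5*, *Eomes*, *Ascl2* and *Gcm1*, which mark trophoblast cells, were not detected on any array at 0.01. Of 11 parietal endoderm markers 5 were above background by detection p and 8 by the limma test. The 5 were *Col4a1*, *Col4a2*, *Lamc1*, *Lama1* and *Pthr1*. *Sparc*, with 4 probes, passed the limma test only, at a level of 2.84. The 11 had summed signals of 12.004, 11.97 and 11.50, and the 5 had medians of -0.06 on replicate 2 and 0.14 on replicate 3. Of 12 definitive endoderm markers 8 were above background, with summed signals of 12.56, 12.48 and 11.80 and medians of 0.24 and -0.16. That list shares 4 genes with the VE transcription factors, and *Foxa1*, *Hhex* and *Sox17* are 3 of its 8, so it does not mark another cell type alone. Of 12 blood and decidua markers 3 were above background, near the 20.6% of all symbols. These were the adult globin genes *Hbb-b1* and *Hba-a1* and the muscle filament gene *Des*, with medians of -0.08 and 0.03. The embryonic globin genes *Hbb-y*, *Hba-x* and *Hbb-bh1* were not detected on any array at 0.01. Nor were *Gata1*, *Klf1*, *Ptprc*, *Lyz2*, *Prl8a2* and *Prg2*. The summed signals of all 12 were 10.48, 10.37 and 10.21. The globin genes have close copies whose signals may be mixed. The 11 embryonic region markers above background had medians of 0.15 on replicate 1, -0.21 on replicate 2 and -0.03 on replicate 3, and the summed signal of all 15 was 12.38, 12.01 and 11.74. The summed signal of the 10 VE genes was 13.54, 13.54 and 12.36. All these sums use deposited signals, on which 93.4% of symbols above background were lowest on replicate 3. The brightest genes weigh most in a sum. The sums alone therefore do not show how much of a cell type each array held.

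**Figure D4:**
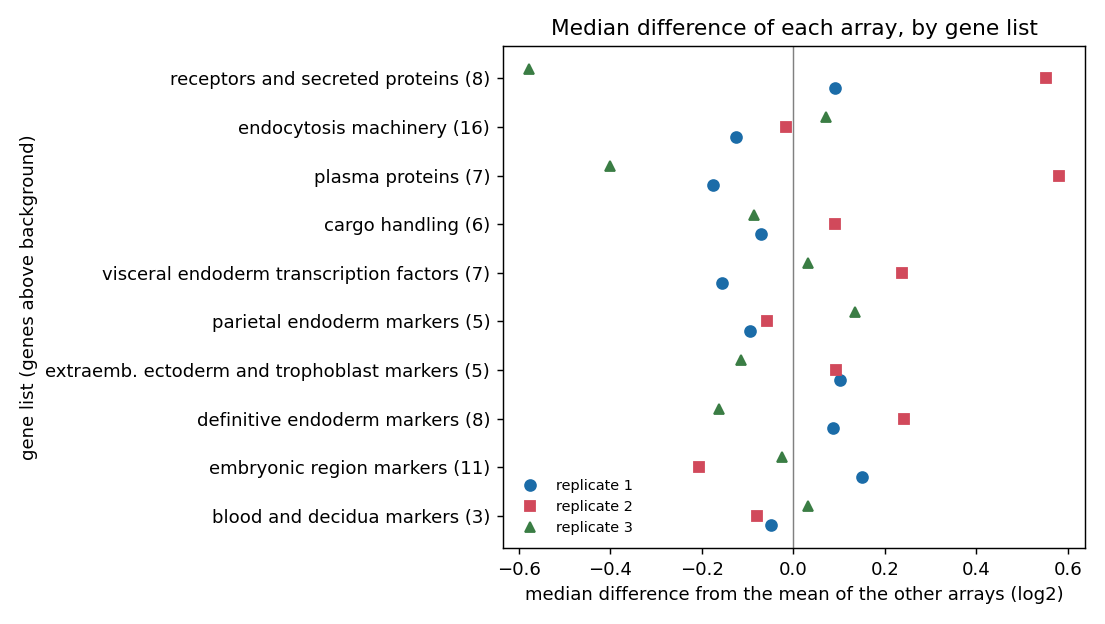
Median difference of each array from the mean of the other 2 (log2, normalized) over the genes of each list that were above background, with their number in brackets. The 8 receptor, secreted protein and *Hnf4a* genes and the 7 plasma protein genes lie farthest from 0, up on replicate 2 and down on replicate 3, and the endocytosis machinery lies near 0.

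Over all 6357 symbols above background, the 10 with the largest difference of replicate 2 from the mean of the others were *mt-Atp6*, *Bhmt2*, *Fga*, *B130016L16Rik*, *Polr2g*, *Eif3k*, *1200002N14Rik*, *Tde2*, *2610528J11Rik* and *Mdh2*, with differences of 0.94 to 1.16. A low replicate 3 enters these differences. *mt-Atp6*, at normalized levels of 9.67, 9.65 and 7.31, was not highest on replicate 2, and *Polr2g*, at 9.74, 9.77 and 7.71, was nearly equal on replicates 1 and 2. *Fga* is the only gene of the lists among them, and none of the 8 genes above background is. *Cubn* came 47th and *Rbp4* 102nd in this order, and *Hnf4a* 3106th.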

How the data were processed

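Total RNA was measured on 3 Illumina arrays. The authors deposited, per gene symbol, a log2 signal averaged over probes and not normalized between arrays, the mean number of beads (an other quantity, not a level), the standard error over beads as a linear intensity, and a detection p-value. Partek is named in the submitters' processing notes, and its version and the genome build are not given in the sources used here.

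The members and lists were chosen with earlier results of these data known. Signals were corrected with normexp using 21986 symbols with 1 probe and their detection p, with an offset of 16, followed by quantile normalization and log2. A symbol was taken to have 1 probe where its bead numbers were whole and its detection p a multiple of 1 in 936 on every array. The background level was the lowest level of such symbols with a detection p above 0 and under 0.01. Level minus background was tested with limma 3.58.1 (lmFit, eBayes with trend and robust, one-sided, Benjamini-Hochberg over 30854 symbols, threshold 0.05) in R 4.3.3. On simulated data with 200 of 30854 symbols raised and the rest 0.5 below background, 2% were recovered at 0.5 above background, 99% at 1 and 100% at 4. In the real data 7663 symbols passed, so the adjustment was less strict there and these shares do not carry over.

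Bead errors were set to the log2 scale by dividing by the linear signal and the natural log of 2. The number of arrays limits the precision. Genes chosen for naming from a list were its 5 highest levels above background and its 3 widest ranges. Where 5 or fewer were above background, all of them were chosen. Not all chosen genes are named. Others, such as undetected genes, were named after their values were seen. Older symbols were matched through the RefSeq table of GRCm38.p6, and 2 listed genes had no match. Some genes counted in the lists are not reported here by name. Alternatives were other detection rules, normalizations, background levels and fits, and leaving out each array. Python 3.11.15 was used for the rest.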

Additional observations from a re-analysis of the deposited data

How the results depend on the processing

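Detection in the 10 genes changed with the rule for *Dab2*, *Afp* and *Lrp2* only. The count of 8 became 7 at a detection p under 0.001 (without *Dab2*), 9 with detection on at least 2 arrays or at least 1 (adding *Afp*), 10 in the limma test, and 8 to 9 without a replicate. All 10 passed the limma test under every normalization, and *Afp* alone failed it, without replicate 2 (level 0.40) and with the median of undetected symbols as the background level (1.49). Level sizes depended more on the setting, for example 0.81 to 2.47 for *Cubn* and 4.81 to 7.19 for *Spink3*. *Lrp2* has no value among symbols detected on at least 1 array, since it was detected on none. The median differences kept their direction under the 4 other scalings and without a replicate, from 0.41 to 0.55 on replicate 2 and from -0.78 to -0.41 on replicate 3 over the scalings. On replicate 2 the median was 0.29 without replicate 3 and 0.81 without replicate 1, and on replicate 3 it was -0.46 without replicate 2 and -0.81 without replicate 1. Genes over 0.5 higher on replicate 2 numbered 6, and 3 without background correction (0.787% of symbols above background), 1 at a difference of 1, and 3 to 7 without a replicate, 3 being without replicate 3. Genes over 0.5 lower on replicate 3 numbered 7, and 4 without background correction (2.55% of symbols), 2 at a difference of 1. On signals not normalized they numbered 9, beside 30.5% of symbols above background. Plasma protein genes above background numbered 7, and 4 at a detection p under 0.001 and 11 with detection on at least 1 array. Parietal endoderm markers numbered 5, and 8 with detection on at least 1 array. Deposited signals include background, so they understate the change of dim genes such as *Afp*, and the offset of 16 does so too. No paired analysis was possible because all arrays belong to 1 group.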
